A study of Mus musculus with 24 samples.

Results

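The response of mouse liver to obeticholic acid (OCA, INT-747), a semi-synthetic bile acid that activates the farnesoid X receptor (FXR), was described in wild-type animals. The members were the arrays labelled as wild type, 12 of the 24 in the series, with 6 from mice given OCA and 6 from mice given vehicle. All mice were male C57BL/6 animals kept on chow, and they were gavaged once daily for 7 days from an age of 9 to 12 weeks. OCA was dosed at 10 mg/kg/day, and the vehicle was 1% methyl cellulose. The other 12 arrays came from FXR-/- mice treated in the same ways, and they served to estimate the spread and to test whether the effect of OCA differed between genotypes. Each array held liver RNA of 1 mouse, and the mouse numbers in the labels all differed. Whole liver was used, so fewer cells of a type and less RNA per cell cannot be told apart in any value below. The question was which liver transcripts differ after a week of FXR activation when the receptor is present.

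FXR is a nuclear receptor that senses bile acids in hepatocytes and in the gut. In liver it induces the repressor SHP (gene Nr0b2), which lowers transcription of the bile acid synthesis genes Cyp7a1 and Cyp8b1, and it induces transporters that move bile acids out of the cell. In the gut it induces the hormone FGF15, which acts on hepatocytes through the receptor FGFR4 and its partner beta-klotho and also lowers bile acid synthesis.

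Values are log2 expression values from whole-transcript arrays, so a difference of 1 is a 2-fold difference. Wild-type vehicle replicate 6 stood apart from its group: 532 of 18820 genes were more than 2-fold away from the other 5 vehicle arrays, against 26 to 90 genes in the other 11 wild-type arrays. The gene and list differences are therefore also given without it. The array names carry a code of a letter and a number whose meaning the sources used here do not give. All 6 OCA arrays and vehicle replicates 5 and 6 have the number 5, and vehicle replicates 1 to 4 have the number 7. The gene and list differences are also given with this number as a block, which sets the OCA arrays against vehicle replicates 5 and 6 and so leans on the array that stands apart. The hepatocyte identity of the tissue was plain: the 12 measured hepatocyte markers, such as Ahsg and Trf, averaged 12.68 to 12.81 in the vehicle arrays and 12.72 to 12.81 in the OCA arrays.

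The promoters of the 3 genes chosen to mark the comparison are shown first, because they are the genes by which a reader can judge FXR activity in these livers. Each window runs from 250 bases before to 50 bases after the gene's start, 5′ to 3′ on the gene's own strand, from RefSeq (GRCm38.p6). Capitals mark AGGTCA, the core site bound by many nuclear receptors, and TCAAGG, a form of the core bound by the receptor LRH-1 that SHP inhibits. Both were searched on both strands.
Nr0b2, chr4:133553126-133553425, plus strand: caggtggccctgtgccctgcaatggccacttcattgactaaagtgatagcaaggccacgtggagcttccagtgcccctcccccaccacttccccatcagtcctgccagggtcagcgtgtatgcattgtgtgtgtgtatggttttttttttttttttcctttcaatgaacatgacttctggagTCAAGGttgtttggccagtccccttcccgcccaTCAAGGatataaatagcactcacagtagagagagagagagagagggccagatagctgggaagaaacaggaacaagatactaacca
Slc51b, chr9:65422724-65423023, minus strand: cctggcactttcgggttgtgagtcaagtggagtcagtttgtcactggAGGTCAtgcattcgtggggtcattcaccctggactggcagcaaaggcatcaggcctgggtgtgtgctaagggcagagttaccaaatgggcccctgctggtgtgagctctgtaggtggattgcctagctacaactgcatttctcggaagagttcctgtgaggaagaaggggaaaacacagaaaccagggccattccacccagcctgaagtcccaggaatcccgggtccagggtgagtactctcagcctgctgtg
Cyp8b1, chr9:121916256-121916555, minus strand: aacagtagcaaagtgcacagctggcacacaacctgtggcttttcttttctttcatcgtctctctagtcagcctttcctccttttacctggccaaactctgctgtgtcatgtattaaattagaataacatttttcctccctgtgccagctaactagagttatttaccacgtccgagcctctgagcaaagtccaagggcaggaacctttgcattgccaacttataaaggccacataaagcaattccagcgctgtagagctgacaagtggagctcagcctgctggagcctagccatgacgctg
The Nr0b2 window held TCAAGG at 68 to 63 and at 35 to 30 bases before the start. The Slc51b window held AGGTCA at 203 to 198 bases before the start, and the Cyp8b1 window held neither set of letters. It did hold ccaagg, which differs from TCAAGG in the first letter. Other forms of either site were not searched, so a window without capitals may still hold a site. Such short matches were common, with AGGTCA in 16.3% and TCAAGG in 14.4% of 32851 RefSeq windows of the same length. Among the 13 genes called below, 1 had AGGTCA and 3 had TCAAGG (Nr0b2, Enpp6 and Arl2bp). A match here is a description of the letters and not evidence of binding.

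After OCA the repressor gene Nr0b2 and the bile acid exporter gene Slc51b rose and the hydroxylase gene Cyp8b1 fell, each by over 2-fold. Nr0b2 encodes SHP, and its vehicle arrays had a lowest value of 5.87, a median of 6.56 and a highest value of 7.30. The OCA arrays had a lowest value of 7.31, a median of 8.02 and a highest value of 8.62. The groups just failed to touch, since vehicle replicate 5 read 7.30 and OCA replicate 1 read 7.31. Nr0b2 rose from 6.59 ± 0.51 to 8.00 ± 0.43 (mean ± SD, n = 6 each), a log2 change of 1.41 ± 0.25 (SE; limma, Benjamini-Hochberg adjusted p = 0.0244). Without vehicle replicate 6, the lowest vehicle array for this gene, the change was 1.26 with limma adjusted p = 0.0526, and with the number block it was 1.42 with limma adjusted p = 0.0378. The Nr0b2 call was lost in 9 of the 12 fits that each left out 1 wild-type array, all but those without OCA replicate 1 or vehicle replicate 3 or 5, while its log2 change stayed between 1.26 and 1.55 in them.

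Slc51b encodes the beta subunit of the exporter that moves bile acids across the basolateral membrane. Its vehicle arrays ran from 4.42 through a median of 4.68 to 4.96, and its OCA arrays from 5.23 through 5.66 to 6.12. Every OCA array was above every vehicle array. The vehicle level lay close to the array medians of 4.57 to 4.65 and may be partly background, so the size of the rise is uncertain. The gene rose by 1.02 ± 0.13 on the log2 scale (from 4.67 ± 0.22 to 5.68 ± 0.30; limma adjusted p = 0.000699). The change was 0.97 without vehicle replicate 6 and 1.09 with the number block, and the call was kept in all 12 fits without 1 array. Slc51a, the gene of the alpha subunit, was singled out after its values were seen. It lay near the low end of the scale in both groups, at 3.23 ± 0.16 in vehicle and 3.00 ± 0.12 in OCA livers, and its difference of −0.22 ± 0.09 (limma adjusted p = 0.385; −0.24 without vehicle replicate 6 and −0.23 with the number block) did not pass.

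Cyp8b1 encodes the sterol 12-alpha-hydroxylase, which steers bile acid synthesis towards cholic acid. Its vehicle arrays ran from 10.62 through a median of 10.73 to 11.51, and its OCA arrays from 9.09 through 9.70 to 10.05. No OCA array reached the lowest vehicle array. Cyp8b1 fell by 1.28 ± 0.14 on the log2 scale, or 2.43-fold (from 10.87 ± 0.33 to 9.59 ± 0.37; limma adjusted p = 3.74e-05). It was the gene with the smallest p of all 18820, and the call was kept in all 12 fits without 1 array, with changes of −1.38 to −1.15. Without vehicle replicate 6 the change was −1.31, and with the number block it was −1.24. An exact two-sided permutation test over the 12 arrays gave p = 0.00216 for each of Nr0b2, Slc51b and Cyp8b1, the smallest p that the 924 arrangements allow. Groups of 6 that do not overlap always give this p, so it only restates the lack of overlap. It is also not adjusted for the number of genes.

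In all, 13 of 18820 genes (0.0691%) were called at limma adjusted p < 0.05, with 6 higher (0.0319%) and 7 lower (0.0372%) after OCA. At an unadjusted limma p under 0.05 there were 1782 genes (9.47%), 830 higher (4.41%) and 952 lower (5.06%). Over 2-fold differences were few, with 2 genes higher (0.0106%) and 2 lower (0.0106%). The OCA and vehicle groups did not overlap for 86 genes (0.457%), 36 higher and 50 lower. Of the 13 called genes 9 did not overlap, and Csad, Fitm1, P4ha1 and Sccpdh did. All 13 kept their sign without vehicle replicate 6 and with the number block. Without vehicle replicate 6 there were 15 calls (0.0797%), and 7 of them were among the 13. With the number block there were 667 calls (3.54%; 336 higher, 1.79%, and 331 lower, 1.76%), and 12 of the 13 were among them, with Gcnt2 lost (adjusted p = 0.0667 by limma). The shares of all genes given here, with the block and at an unadjusted p under 0.05, are the background for all list counts below. Of the 12 fits without 1 array, Slc51b and Cyp8b1 were called in 12, Enpp6 in 11, Rgs5 in 10, Zfp983 in 9, Gcnt2 in 7 and Arl2bp in 6. P4ha1 and Irf2 were called in 4, Nr0b2, Fitm1 and Sccpdh in 3 and Csad in 2. When OCA replicate 5 was left out, Slc51b and Cyp8b1 were the 2 calls that remained of the 13. The same 2 remained when the wild-type groups alone were fitted (limma adjusted p = 0.0376 each), where Nr0b2 had limma adjusted p = 0.21. The main fit takes the spread of a gene from all 4 groups. FXR-/- arrays had 2 to 37 genes over 2-fold from their group, against 26 to 532 in wild-type arrays. The SE and p given here can therefore be too small for wild-type livers.

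**Figure D1:**
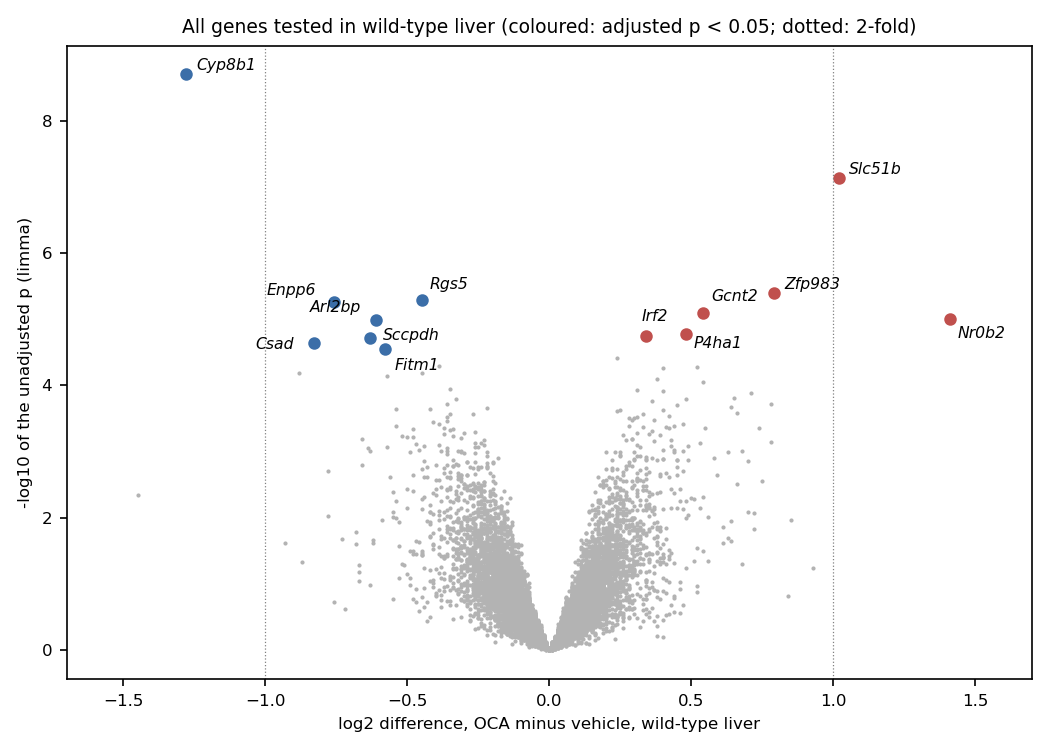
Each point is 1 of 18820 genes, with the log2 difference OCA minus vehicle in wild-type liver on the x axis and −log10 of the unadjusted limma p on the y axis. Coloured points are the 13 called genes, of which Cyp8b1 has the smallest p and Nr0b2 the largest rise.

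Beside Nr0b2 and Slc51b, 4 genes rose. Zfp983, a zinc finger gene, ran from 4.53 through a median of 4.95 to 5.44 in vehicle and from 5.57 through 5.81 to 5.97 in OCA livers, with no overlap. Its log2 change was 0.79 ± 0.13 (limma adjusted p = 0.0204), and it was 0.69 without vehicle replicate 6 and 1.11 with the number block. Gcnt2, which encodes a glycosyltransferase that branches poly-N-acetyllactosamine chains, ran from 7.69 through 7.98 to 8.09 and from 8.21 through 8.49 to 8.61. These groups did not overlap either, and the gene rose by 0.54 ± 0.10 (limma adjusted p = 0.0244), with 0.57 without vehicle replicate 6 and 0.44 with the number block. P4ha1 encodes a catalytic subunit of the prolyl hydroxylase that modifies collagen in the endoplasmic reticulum. It ran from 5.94 through 6.14 to 6.41 in vehicle and from 6.34 through 6.65 to 6.89 in OCA livers, so that the ends of the groups crossed. Its rise was 0.48 ± 0.09 (limma adjusted p = 0.033), against 0.43 (adjusted p = 0.0643) without vehicle replicate 6 and 0.47 with the number block. Irf2, a transcription factor of the interferon regulatory family, had the smallest change of the 6 and a narrow spread. It ran from 8.64 through 8.81 to 8.95 and from 9.02 through 9.11 to 9.31, and rose by 0.34 ± 0.06 (limma adjusted p = 0.033; 0.31 with adjusted p = 0.063 without vehicle replicate 6, 0.42 with the number block).

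Beside Cyp8b1, 6 genes fell. Csad, the decarboxylase on the route from cysteine to taurine, with which mouse bile acids are conjugated, ran from 9.23 through a median of 9.90 to 10.12 in vehicle and from 8.32 through 9.09 to 9.61 in OCA livers. Its log2 change was −0.83 ± 0.16 (limma adjusted p = 0.0361), and it was −0.79 (adjusted p = 0.0648) without vehicle replicate 6 and −1.06 with the number block. The highest OCA livers lay within the vehicle range. Enpp6, a choline-specific phosphodiesterase of the outer cell surface, ran from 5.33 through 5.77 to 6.24 and from 4.85 through 4.96 to 5.32. Its groups were separate by a margin of hundredths, and it fell by 0.76 ± 0.13 (limma adjusted p = 0.0204). For Enpp6 the change was −0.67 without vehicle replicate 6 and −1.19 with the number block.

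Sccpdh, named for its likeness to saccharopine dehydrogenase, ran from 5.19 through 5.58 to 5.85 in vehicle and from 4.36 through 5.01 to 5.29 in OCA livers. It fell by 0.63 ± 0.12 (limma adjusted p = 0.033), with −0.57 (adjusted p = 0.0647) without vehicle replicate 6 and −0.82 with the number block. Arl2bp, which encodes a partner of the small GTPase ARL2, fell by 0.61 ± 0.11 with no overlap (limma adjusted p = 0.0244). Its vehicle arrays ran from 7.19 through 7.52 to 8.00 and its OCA arrays from 6.70 through 6.98 to 7.11, and its change was −0.52 without vehicle replicate 6 and −0.82 with the number block. Fitm1, a protein of the endoplasmic reticulum that promotes lipid droplet formation, ran from 9.55 through 10.13 to 10.21 and from 9.09 through 9.43 to 9.73. Here the lowest vehicle liver lay inside the OCA range. Fitm1 fell by 0.58 ± 0.11 (limma adjusted p = 0.0411), and without vehicle replicate 6 the change was −0.55 with adjusted p = 0.0648, and with the number block it was −0.75. Rgs5, a regulator of G-protein signalling that marks pericytes, ran from 7.20 through 7.41 to 7.69 in vehicle and from 6.87 through 6.97 to 7.04 in OCA livers. The OCA values of Rgs5 were tightly bunched (SD 0.06 against 0.16), and the gene fell by 0.45 ± 0.08 (limma adjusted p = 0.0204; −0.47 without vehicle replicate 6, −0.42 with the number block).

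**Figure D2:**
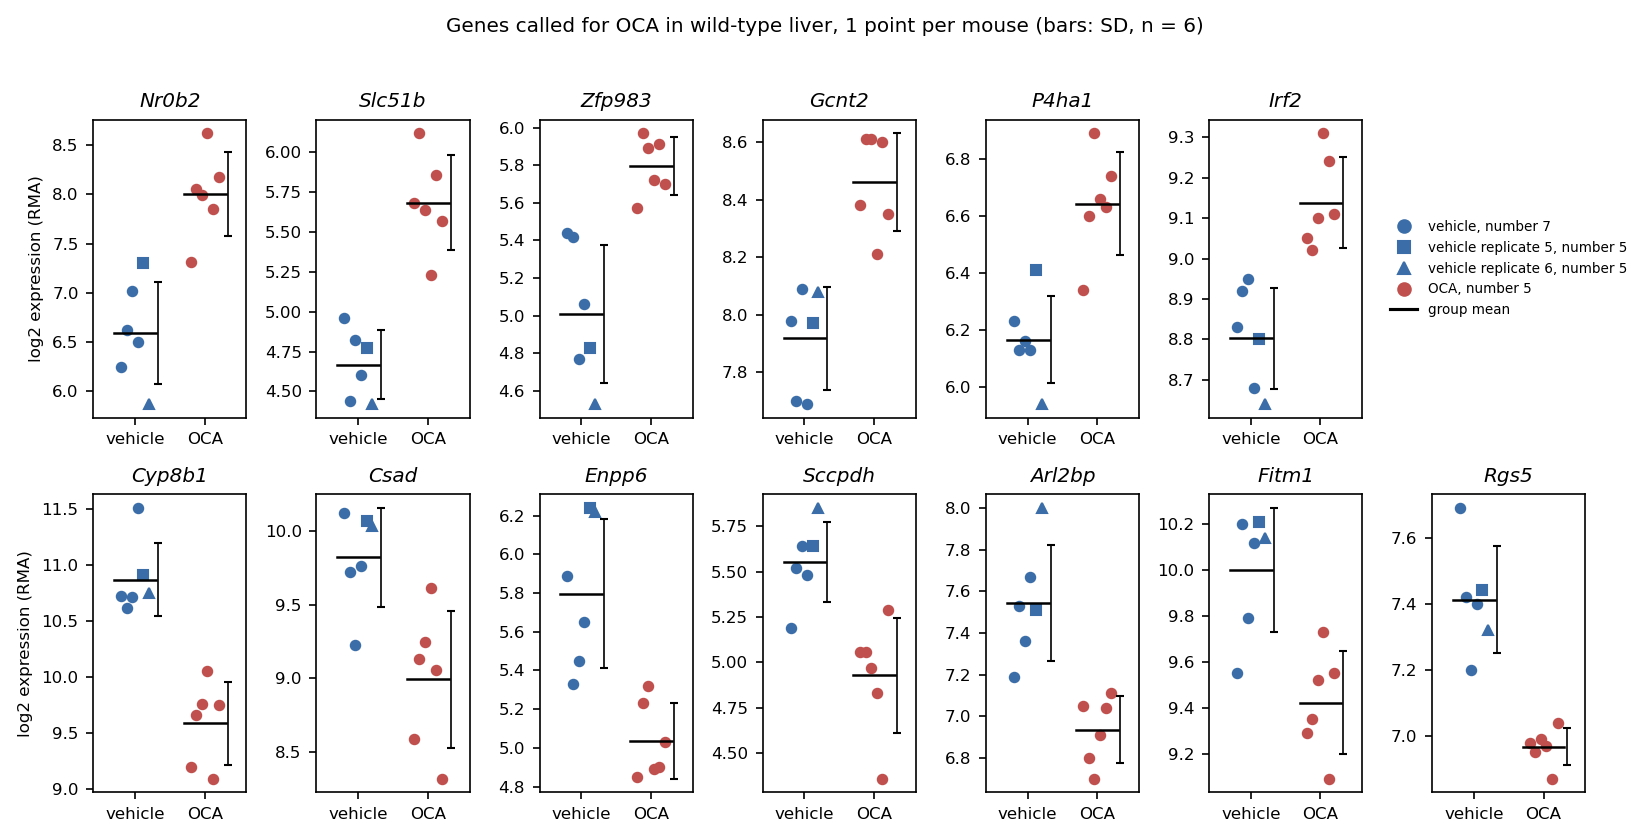
Log2 expression (y axis) of each of the 13 called genes in every wild-type array, with 1 point per mouse, vehicle and OCA side by side, and the group mean. Vehicle replicate 6 is marked apart, and the Cyp8b1, Slc51b and Nr0b2 groups do not overlap.

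The same genes were read in FXR-/- livers, where OCA was given in the same way. There 3 of 18820 genes were called (0.0159%) and 968 had an unadjusted limma p under 0.05 (5.14%). None of the 13 was among the 3, with limma adjusted p of at least 0.977 and log2 changes no larger than 0.24 in size. The knockout changes were 0.20 ± 0.25 for Nr0b2, 0.13 ± 0.13 for Slc51b and −0.13 ± 0.14 for Cyp8b1. Mean FXR-/- levels under vehicle and OCA were 3.97 and 4.17 for Nr0b2 and 3.56 and 3.69 for Slc51b. These lay below the lowest array median of 4.57 and may be background, so a change of Nr0b2 or Slc51b there could be missed. Cyp8b1 was well above that, at 11.68 and 11.55. The sign matched that in wild-type liver for 8 of the 13 and was opposite for 5. Whether the OCA effect differed between genotypes was then tested directly. Cyp8b1 had the smallest p for this difference among the 13, at −1.15 ± 0.20 (unadjusted p = 4.47e-06, limma adjusted p = 0.0841). Slc51b differed by 0.89 ± 0.19 (limma adjusted p = 0.168) and Nr0b2 by 1.21 ± 0.36 (limma adjusted p = 0.495). No gene passed this test by limma after adjustment over all genes, while 1140 genes (6.06%), all 13 among them, had an unadjusted p under 0.05. With array weights 2 genes passed, and with the number block 34 did. The 13 genes were chosen on the wild-type side of this difference, so their unadjusted values for it are no separate evidence.

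**Figure D3:**
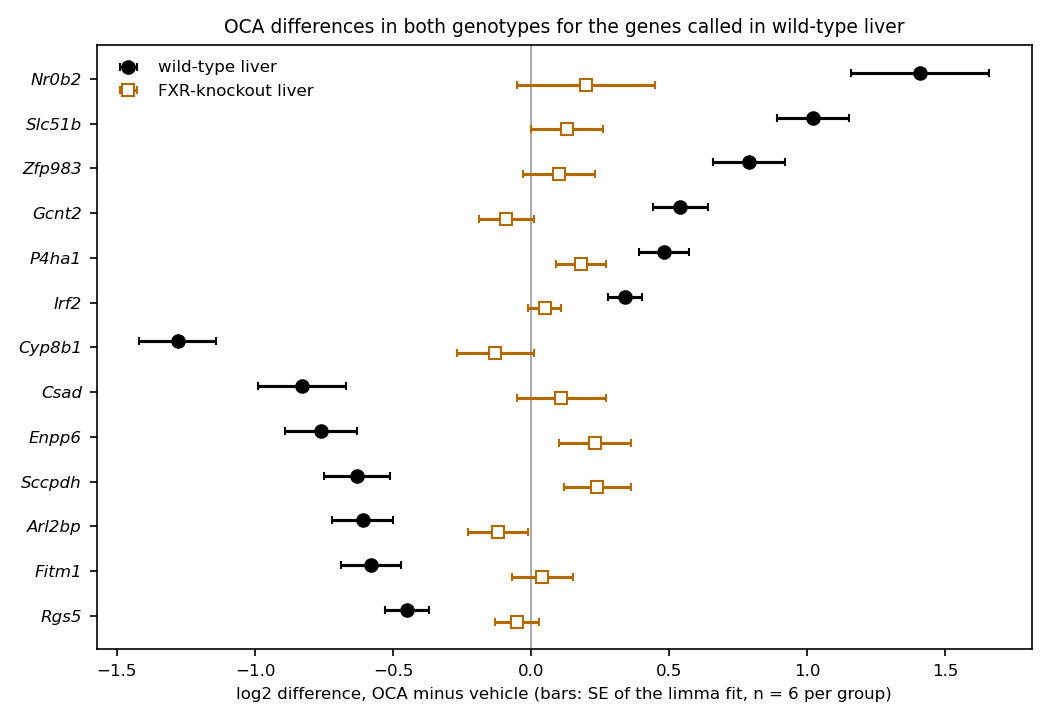
Log2 change with OCA (x axis, OCA minus vehicle, bars ± SE) of the 13 called genes in wild-type and in FXR-/- liver. The wild-type changes run from −1.28 for Cyp8b1 to 1.41 for Nr0b2, and no knockout change is larger than 0.24 in size. In FXR-/- liver the levels of Nr0b2 and Slc51b were low enough to be background.

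The receptor gene itself, Nr1h4, read 10.14 ± 0.12 in vehicle and 10.07 ± 0.16 in OCA livers, a difference of −0.07 ± 0.07 (limma adjusted p = 0.815; −0.06 without vehicle replicate 6 and −0.03 with the number block). The FXR-/- arrays read a mean of 9.97 under vehicle and 9.92 under OCA for Nr1h4, close to wild type. The sources used here do not say whether its probe set lies in the deleted part of the gene, so this level does not check the knockout. Among 31 measured genes that FXR is known to induce in liver, Nr0b2 and Slc51b were called, and no gene of the list was called lower. With the number block, where 1.79% of all genes were called higher and 1.76% lower, 2 of the 31 were called higher and 2 lower. Their median log2 difference was 0.01, against 0 over all genes, and 17 were above and 14 below 0. The list median was 0.02 without vehicle replicate 6 and −0.03 with the number block. Abcb11, the canalicular bile salt export pump and a textbook FXR target, ran from 10.87 through a median of 11.41 to 11.70 in vehicle and from 11.39 through 11.51 to 11.75 in OCA livers. Its groups overlapped widely, and its difference of 0.18 ± 0.12 (limma adjusted p = 0.691; 0.07 without vehicle replicate 6 and 0.27 with the number block) did not pass. Nr1i2, the xenobiotic receptor PXR, ran from 8.82 to 9.28 in vehicle and from 9.26 to 9.41 in OCA livers, with a difference of 0.29 ± 0.08 (limma adjusted p = 0.187; 0.30 without vehicle replicate 6 and 0.38 with the number block). Among 21 measured nuclear receptor genes, Nr0b2 alone was called, with a median of 0.04 (0.02 without vehicle replicate 6). With the number block 3 of the 21 were called higher and 1 lower, with a median of 0.15. Pparg came closest to a call of the rest, at −0.57 ± 0.12 (limma adjusted p = 0.067; −0.45 without vehicle replicate 6 and −0.88 with the number block, called there at adjusted p = 0.00281).

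Of 17 measured genes of bile acid synthesis, 1 was called (Cyp8b1), 13 were below 0 and 4 above, and the median difference was −0.10 (−0.08 without vehicle replicate 6, −0.06 with the number block). Cyp7a1, which catalyses the first step of the classical pathway, varied more between mice than between groups. Its vehicle arrays ran from 8.52 through a median of 10.34 to 11.08 and its OCA arrays from 8.01 through 9.61 to 10.41. The difference of −0.67 ± 0.35 did not pass (limma adjusted p = 0.568). It was −0.99 without vehicle replicate 6 and 0.44 with the number block, so its direction depended on which vehicle livers it was set against. Hsd3b7, the dehydrogenase of the next step, stood at −0.26 ± 0.10 (limma adjusted p = 0.369; −0.31 without vehicle replicate 6 and −0.37 with the number block). Hsd17b4, a peroxisomal enzyme of side chain shortening, stood at −0.11 ± 0.06 (limma adjusted p = 0.564; −0.11 without vehicle replicate 6 and −0.06 with the number block). Of 11 genes of taurine supply and conjugation, Csad alone was called, and the median was −0.01 (0.01 without vehicle replicate 6, −0.07 with the number block, where 1 was called higher and 1 lower).

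Of 20 bile acid and organic ion transporter genes, Slc51b alone was called, with a median of 0.07 (0.01 without vehicle replicate 6, 0.16 with the number block). Abcb1a, a multidrug exporter, stood at 0.53 ± 0.18 (limma adjusted p = 0.306; 0.43 without vehicle replicate 6 and 0.80 with the number block). Abcg2, an exporter of sulphated compounds, stood at −0.29 ± 0.08 (limma adjusted p = 0.207; −0.25 without vehicle replicate 6 and −0.38 with the number block). None of the 12 measured genes of the FGF receptor axis was called. Of these, 10 were above 0, and the median was 0.14, or 0.09 without vehicle replicate 6 and 0.23 with the number block. Fgfr2 ran from 6.90 to 7.90 in vehicle and from 7.76 to 8.35 in OCA livers and differed by 0.47 ± 0.12 (limma adjusted p = 0.129; 0.34 without vehicle replicate 6 and 0.64 with the number block, called there at adjusted p = 0.033). Dusp6, a phosphatase induced by FGF signalling, stood at 0.63 ± 0.25 (limma adjusted p = 0.417; 0.36 without vehicle replicate 6 and 0.73 with the number block). Fgfr1 stood at −0.17 ± 0.10 (limma adjusted p = 0.623; −0.13 without vehicle replicate 6 and −0.14 with the number block). The groups overlapped widely for Fgfr4 (7.64 to 8.52 in vehicle, 7.91 to 8.33 in OCA livers). They also did for Klb, the gene of beta-klotho (7.57 to 8.71 and 8.23 to 8.80).

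Genes of lipid metabolism had many small differences and, without a block, a single call. Of 25 listed genes of cholesterol synthesis and uptake 21 were measured. At an unadjusted p under 0.05, where 4.41% of all genes were higher and 5.06% lower, 12 of the 21 were higher and 0 lower. None of the 21 was called, and 18 were above 0. Their median was 0.26, or 0.16 without vehicle replicate 6 and 0.40 with the number block, with which 3 were called higher and 1 lower. Sqle, the squalene epoxidase, ran from 7.53 through a median of 8.15 to 8.37 in vehicle and from 8.28 through 8.65 to 9.25 in OCA livers. Its difference was 0.66 ± 0.16 (limma adjusted p = 0.117; 0.67 without vehicle replicate 6 and 0.81 with the number block, called there at adjusted p = 0.0439). Pmvk, a kinase of the mevalonate route, stood at 0.51 ± 0.17 (limma adjusted p = 0.27; 0.40 without vehicle replicate 6 and 0.74 with the number block). Cyp51, the lanosterol demethylase, stood at 0.33 ± 0.10 (limma adjusted p = 0.219; 0.27 without vehicle replicate 6 and 0.48 with the number block). The mean level of the list ran from 8.91 to 9.40 in the vehicle arrays and from 9.14 to 9.80 in the OCA arrays, and vehicle replicate 6 was the lowest.

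Fatty acid and triglyceride synthesis genes lay on the same side, with no call when all arrays were fitted without a block. At an unadjusted p under 0.05, 6 of the 23 measured were higher and 0 lower, beside 4.41% and 5.06% of all genes. The list median was 0.12 (0.06 without vehicle replicate 6, 0.29 with the number block). With the number block 3 of the 23 were called higher and 0 lower, beside 1.79% and 1.76% of all genes. Acaca, the acetyl-CoA carboxylase that opens the pathway, stood at 0.40 ± 0.11 (limma adjusted p = 0.157; 0.37 without vehicle replicate 6 and 0.59 with the number block, called there at adjusted p = 0.0285). Acly, which supplies cytosolic acetyl-CoA, stood at 0.50 ± 0.16 (limma adjusted p = 0.264; 0.40 without vehicle replicate 6 and 0.73 with the number block). Fasn, the fatty acid synthase, stood at 0.56 ± 0.20 (limma adjusted p = 0.336; 0.55 without vehicle replicate 6 and 0.65 with the number block). All 6 OCA livers were above the vehicle mean for Acaca and Acly, and 5 of 6 for Fasn.

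Fatty acid oxidation genes and targets of the receptor PPAR-alpha lay on the other side. At an unadjusted p under 0.05, where 5.06% of all genes were lower and 4.41% higher, 8 of the 23 measured were lower and 0 higher. None of the 23 was called, and 18 were below 0 with a median of −0.13 (−0.13 without vehicle replicate 6, −0.09 with the number block, where 1 was called higher and 1 lower). The mean level of the list ran from 9.32 to 9.86 in the vehicle arrays. Among the OCA arrays replicate 5 was the lowest at 8.81, against 9.24 to 9.64 in the others. Cyp4a14, a fatty acid hydroxylase, had a large and uneven difference. It ran from 10.19 through a median of 11.30 to 11.71 in vehicle and from 6.73 through 10.15 to 11.15 in OCA livers, a difference of −1.45 ± 0.47 (limma adjusted p = 0.259; −1.34 without vehicle replicate 6 and −1.26 with the number block). The lowest value came from OCA replicate 5, and without that array the Cyp4a14 difference was −0.86. The OCA spread (SD 1.67) was far wider than the vehicle spread (SD 0.60). Its neighbour in the family, Cyp4a31, stood at −0.78 ± 0.22 (limma adjusted p = 0.197; −0.78 without vehicle replicate 6 and −0.68 with the number block), and close copies in this family may share array signal. Without OCA replicate 5 the Cyp4a31 difference was −0.56. Cd36, a fatty acid translocase, stood at −0.42 ± 0.14 (limma adjusted p = 0.291; −0.26 without vehicle replicate 6 and −0.79 with the number block, called there at adjusted p = 0.0141).

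Of 15 lipid droplet genes Fitm1 alone was called, 12 were below 0, and the median was −0.10 (−0.06 without vehicle replicate 6, −0.24 with the number block). The lipase gene Lipe stood at −0.31 ± 0.10 (limma adjusted p = 0.249; −0.41 without vehicle replicate 6, called there at adjusted p = 0.0498, and −0.03 with the number block). Pnpla2, the gene of the lipase that acts before it, stood at −0.31 ± 0.11 (limma adjusted p = 0.352; −0.21 without vehicle replicate 6 and −0.34 with the number block). Choline and phosphocholine genes lay mostly lower in OCA livers. Of 18 measured, Enpp6 alone was called. At an unadjusted p under 0.05, 5 of them were lower and 1 higher, beside 5.06% and 4.41% of all genes. Of the 18, 14 were below 0 and the median was −0.10 (−0.10 without vehicle replicate 6, −0.07 with the number block, where 1 was called higher and 2 lower). The mean level of these 18 genes was 8.35 to 8.46 in the vehicle arrays and 8.22 to 8.33 in the OCA arrays. This narrow gap was picked out of 30 lists after the values were seen, and the mean includes the called Enpp6. Gpcpd1, which cleaves glycerophosphocholine, ran from 10.25 through a median of 11.11 to 11.63 in vehicle and from 10.25 through 10.46 to 10.61 in OCA livers. Its difference was −0.66 ± 0.18 (limma adjusted p = 0.186; −0.57 without vehicle replicate 6 and −0.44 with the number block), and in FXR-/- liver it was −0.67 ± 0.18. Chpt1, a phosphocholine transferase, stood at −0.23 ± 0.08 (limma adjusted p = 0.289; −0.23 without vehicle replicate 6 and −0.16 with the number block).

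Of 19 glucose metabolism genes none was called with all arrays, and the median was 0.05 (0.04 without vehicle replicate 6, 0.13 with the number block, where 1 was called higher and 1 lower). Pfkfb3, which makes a fructose bisphosphate that activates glycolysis, stood at 0.68 ± 0.18 (limma adjusted p = 0.157; 0.89 without vehicle replicate 6, called there at adjusted p = 0.00375, and 0.40 with the number block). Vehicle replicate 6 was its highest vehicle array, at 8.01. Of 22 prolyl hydroxylase and collagen genes P4ha1 alone was called, with a median of 0.04 (0.04 without vehicle replicate 6, −0.02 with the number block). Col1a1, a chain of type I collagen, stood at 0.37 ± 0.15 (limma adjusted p = 0.417; 0.36 without vehicle replicate 6 and 0.33 with the number block). P4ha2, the sister subunit of P4ha1, stood at 0.25 ± 0.11 (limma adjusted p = 0.483; 0.17 without vehicle replicate 6 and 0.52 with the number block, called there at adjusted p = 0.0407). P4ha1 was also the single call among 17 hypoxia-inducible genes, whose median was −0.05 (−0.11 without vehicle replicate 6, 0.01 with the number block, where 1 was called higher and 1 lower). Irf2 was the single call among 26 interferon regulatory and interferon-induced genes, whose median was 0.01 with 13 on each side of 0 (−0.01 without vehicle replicate 6, 0.02 with the number block, where 2 were called higher). Gbp2, an interferon-induced GTPase, stood at −0.33 ± 0.16 (limma adjusted p = 0.51; −0.23 without vehicle replicate 6 and −0.50 with the number block).

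**Figure D4:**
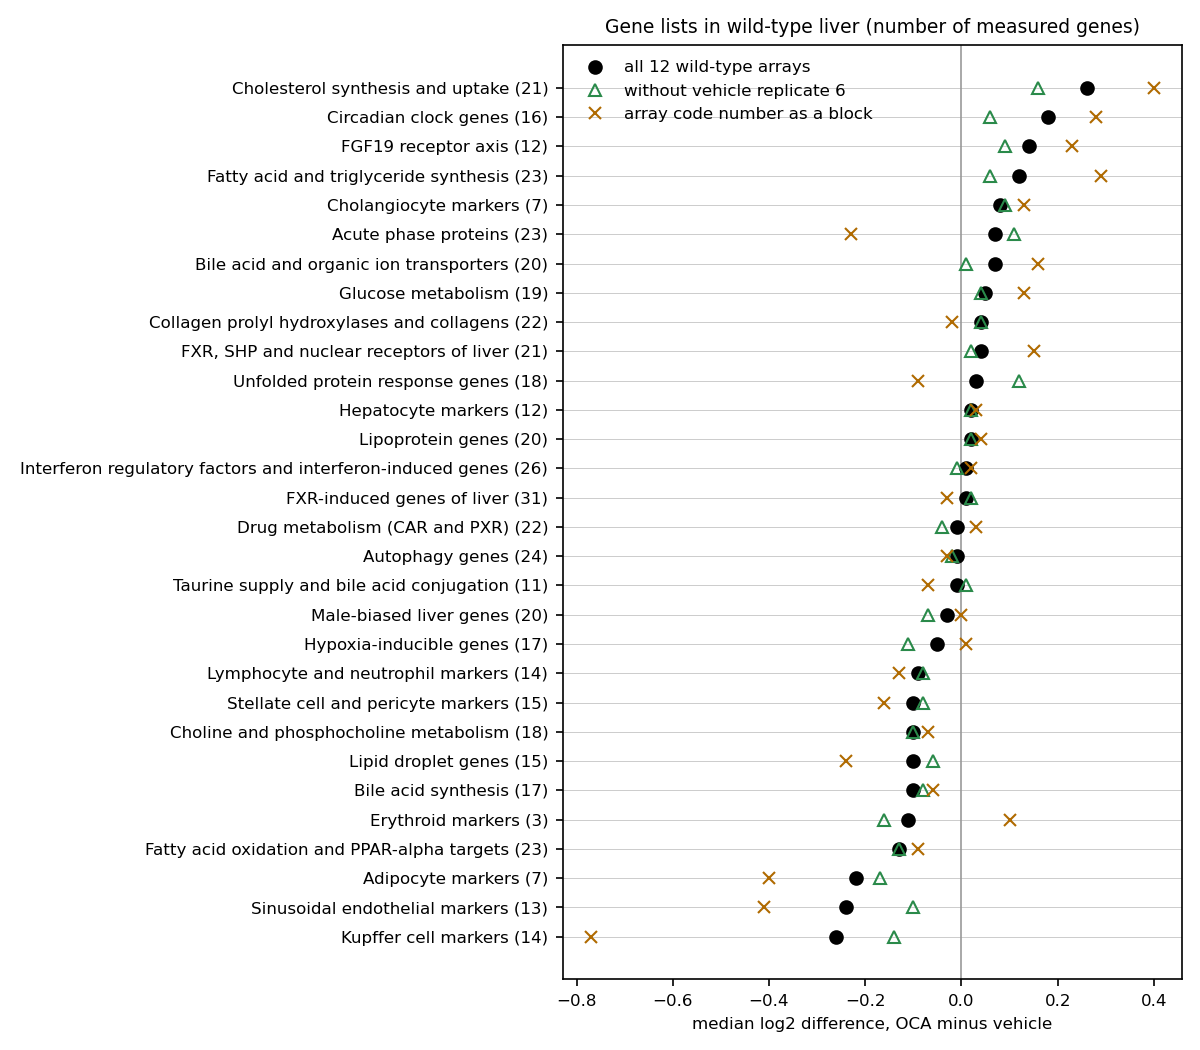
Median log2 difference OCA minus vehicle (x axis) of each of 30 gene lists (y axis, number of measured genes in brackets) with all 12 wild-type arrays, without vehicle replicate 6, and with the code number of the array as a block. Cholesterol synthesis has the highest median at 0.26, and Kupffer cell markers the lowest at −0.26, which moves to −0.14 and −0.77 in the other fits.

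Among markers of other liver cells, the sinusoidal endothelial, Kupffer and stellate lists had medians below 0. The endothelial list had the most genes at a small p. At an unadjusted p under 0.05, where 5.06% of all genes were lower and 4.41% higher, 6 of 13 sinusoidal endothelial markers were lower and 0 higher. None of the 13 was called, and 12 were below 0. Their median was −0.24, or −0.10 without vehicle replicate 6 and −0.41 with the number block, with which 3 of the 13 were called lower. Their mean level ran from 8.13 to 8.49 in vehicle and from 7.94 to 8.16 in OCA livers. Flt4, a vascular endothelial growth factor receptor, stood at −0.34 ± 0.08 (limma adjusted p = 0.14; −0.27 without vehicle replicate 6 and −0.54 with the number block, called there at adjusted p = 0.00844). Fcgr2b, an antibody receptor of these cells, stood at −0.28 ± 0.09 (limma adjusted p = 0.232; −0.32 without vehicle replicate 6 and −0.28 with the number block). Kdr, another growth factor receptor, stood at −0.28 ± 0.09 (limma adjusted p = 0.266; −0.33 without vehicle replicate 6 and −0.29 with the number block). Of 14 Kupffer cell markers, 13 were below 0 with no call, and the median was −0.26. It was −0.14 without vehicle replicate 6 and −0.77 with the number block, with which 3 of the 14 were called lower. At an unadjusted p under 0.05, 1 of the 14 was lower and 0 higher, beside 5.06% and 4.41% of all genes. Vehicle replicate 6 had the highest mean Kupffer level of the vehicle arrays, at 8.51 against 7.55 to 8.29 in the other 5, and the OCA arrays ran from 7.37 to 8.62. Clec4f, which defines the resident Kupffer cell, stood at −0.16 ± 0.09 (limma adjusted p = 0.585; −0.14 without vehicle replicate 6 and −0.38 with the number block). Cd68, a lysosomal protein of macrophages, stood at −0.36 ± 0.16 (limma adjusted p = 0.484; −0.28 without vehicle replicate 6 and −0.85 with the number block, called there at adjusted p = 0.013).

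Rgs5 was the single call among 15 stellate cell and pericyte markers, of which 12 were below 0 with a median of −0.10 (−0.08 without vehicle replicate 6, −0.16 with the number block, where 2 were called lower). At an unadjusted p under 0.05, 2 of the 15 were lower, Rgs5 among them, and 0 higher, beside 5.06% and 4.41% of all genes. The mean level of that list ran from 6.93 to 7.32 in vehicle and from 6.91 to 7.16 in OCA livers, and the part of such cells in the Rgs5 result was not tested. Acta2, the smooth muscle actin, stood at −0.68 ± 0.28 (limma adjusted p = 0.444; −0.70 without vehicle replicate 6 and −0.88 with the number block). Lrat, the retinol-esterifying enzyme of stellate cells, stood at −0.22 ± 0.13 (limma adjusted p = 0.628; −0.27 without vehicle replicate 6 and −0.27 with the number block). The 7 cholangiocyte markers had a median of 0.08 (0.09 without vehicle replicate 6, 0.13 with the number block). Krt19, a keratin of bile ducts, stood at 0.33 ± 0.13 (limma adjusted p = 0.392; 0.30 without vehicle replicate 6 and 0.37 with the number block). Epcam, an adhesion protein of epithelia, stood at 0.25 ± 0.11 (limma adjusted p = 0.45; 0.29 without vehicle replicate 6 and 0.28 with the number block). The mean level of the cholangiocyte list, from 4.19 to 4.31 in vehicle and from 4.28 to 4.43 in OCA livers, was near the median of the whole array. Whether cells of these types have a part in the lists above was not tested.

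**Figure D5:**
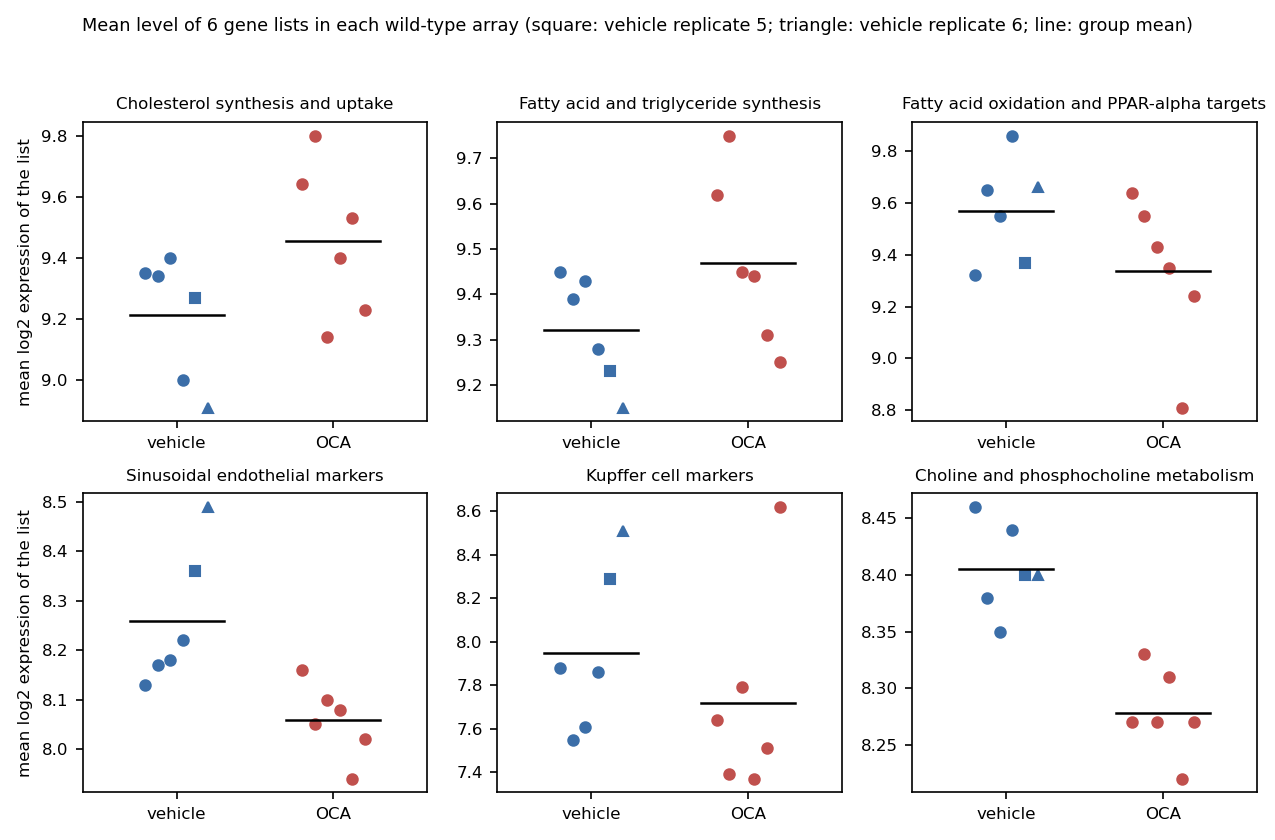
Mean log2 level (y axis) of selected gene lists in each wild-type array, vehicle and OCA side by side, with 1 point per mouse and vehicle replicate 6 marked apart. The Kupffer cell list overlaps widely between groups (7.55 to 8.51 in vehicle, 7.37 to 8.62 in OCA), and vehicle replicate 6 is the highest vehicle array in it.

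Some genes with large differences between means did not pass, and the mice within a group differed widely for most of them. Angptl8, an insulin-responsive inhibitor of lipoprotein clearance, ran from 6.83 to 9.90 in vehicle and from 8.41 to 11.56 in OCA livers. It stood at 0.93 ± 0.47 (limma adjusted p = 0.549; 0.56 without vehicle replicate 6 and 1.24 with the number block), and at 0.54 without OCA replicate 2, its highest array. Noct, a rhythmic deadenylase-like gene, stood at 0.85 ± 0.31 (limma adjusted p = 0.344; 0.76 without vehicle replicate 6 and 1.13 with the number block). Bcl6, a transcriptional repressor, stood at 0.84 ± 0.56 (limma adjusted p = 0.692; 0.63 without vehicle replicate 6 and 0.29 with the number block), and from 0.58 to 1.27 when 1 array was left out. Ccnd1, the cyclin of entry into the cell cycle, ran from 7.54 through a median of 8.40 to 8.57 in vehicle and from 8.18 through 9.20 to 9.41 in OCA livers. Ccnd1 differed by 0.78 ± 0.18 (limma adjusted p = 0.112; 0.64 without vehicle replicate 6 and 1.09 with the number block, called there at adjusted p = 0.0153). Inhba, a chain of activin, stood at 0.78 ± 0.20 (limma adjusted p = 0.154; 0.70 without vehicle replicate 6 and 0.52 with the number block). Ak4, a mitochondrial adenylate kinase, stood at 0.75 ± 0.23 (limma adjusted p = 0.219; 0.50 without vehicle replicate 6 and 1.54 with the number block, called there at adjusted p = 0.00197). Kcnk5, a potassium channel, stood at 0.74 ± 0.18 (limma adjusted p = 0.129; 0.55 without vehicle replicate 6 and 1.12 with the number block, called there at adjusted p = 0.0133). For Inhba, Ak4 and Kcnk5 all 6 OCA livers were above the vehicle mean.

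On the lower side, Slc13a2, a carrier of dicarboxylates and citrate, ran from 4.70 through a median of 5.83 to 6.44 in vehicle and from 4.26 through 4.92 to 5.04 in OCA livers. Its difference of −0.88 ± 0.18 did not pass (limma adjusted p = 0.0648). Without vehicle replicate 6, its lowest vehicle array, Slc13a2 was called at −1.08 (limma adjusted p = 0.000689), and with the number block it stood at −0.44. Cyp2b10, a drug-metabolizing P450, stood at −0.93 ± 0.39 (limma adjusted p = 0.443; −0.59 without vehicle replicate 6 and −1.19 with the number block). E2f8, a cell cycle repressor, stood at −0.78 ± 0.28 (limma adjusted p = 0.332; −0.69 without vehicle replicate 6 and −0.60 with the number block). Myc, a growth-promoting transcription factor, stood at −0.87 ± 0.42 (limma adjusted p = 0.517; −0.92 without vehicle replicate 6 and 0.16 with the number block), so that its sign changed with the block. It was −0.54 without vehicle replicate 4. Cdkn1a, the cell cycle inhibitor p21, read 10.23 in vehicle replicate 6 and 4.78 to 5.97 in the other 5 vehicle arrays. Its difference was −0.76 ± 0.56 (limma adjusted p = 0.726; 0.06 without vehicle replicate 6 and −2.72 with the number block, called there at adjusted p = 0.0115), a block that sets OCA against that array and 1 other.

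Leaving out vehicle replicate 6 gave 8 calls that were not among the 13. These included Slc13a2, Pfkfb3, Lipe and Herpud1, a gene of the endoplasmic reticulum stress response that stood at 0.28 ± 0.07 (limma adjusted p = 0.129; 0.33 without vehicle replicate 6, called there at adjusted p = 0.025, and 0.22 with the number block). Slc35g1, a membrane transporter gene singled out after its values were seen, was another (0.44, limma adjusted p = 0.0236), and with all arrays it stood just outside the threshold at 0.40 ± 0.08 (adjusted p = 0.0612). None of the 8 was called with the number block, and 3 had the opposite sign there.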

How the data were processed

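The deposited tables of the 24 arrays held log2 values, which were analysed unchanged. They were made with RMA by the authors, per the submitters' processing notes, a method that corrects background, normalizes arrays to each other and summarizes probes. Its version and the log base are not stated in the sources used here, and base 2 was inferred because values ran from 0.87 to 13.6. Medians of the arrays were between 4.57 and 4.65. Of 35556 probe sets, 21218 had 1 gene symbol and were used, 1881 had several and 12457 were not in the probe table. Symbols were updated by gene number for 21185 of them from a RefSeq table (GRCm38.p6). The probe set with the highest mean over all arrays stood for a gene, for 18820 genes in all. Detection calls were not used here, so levels near the low end of the scale may be background.

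A means model of 4 groups was fitted with limma 3.58.1 in R 4.3.3 (lmFit, contrasts.fit, eBayes; 20 residual and 4.46 prior degrees of freedom). The Benjamini-Hochberg adjustment ran over all 18820 genes, and calls were made at an adjusted p under 0.05. All adjusted p-values in the text come from this tool. Groups are given as mean ± SD and differences as log2 ± SE. The SE comes from the spread over all 4 groups, and the FXR-/- arrays varied less than the wild-type arrays. The labels number each mouse separately, so the 6 arrays of a group are separate animals, and their number limits the precision. Plots used matplotlib 3.10.9 in Python 3.11.15, and the fit was tested on simulated data.

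The named genes were Nr1h4, Nr0b2, Slc51b, Cyp8b1, Cyp7a1 and Abcb11, every called gene, the 10 highest and 10 lowest differences among named genes with a mean of at least 4.32, and up to 3 genes of smallest p per list. The members, the 30 gene lists and this rule were chosen with earlier results of these data known. Some genes are in more than 1 list, and list medians are a description. Alternatives were centring, quantile normalization, a filter on dim genes, array weights, robust eBayes with trend, the wild-type groups alone, the array code number or letter as a block, number 5 alone, a block on the replicate number, leaving out arrays named with a final _2, other choices of probe set, and leaving out each wild-type array.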

Additional observations from a re-analysis of the deposited data

Results flagged for a closer look

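The vehicle and OCA values of 30 genes (the always named, the called and the 10 highest and lowest) were searched for arrays far from the rest of their group, in 60 groups of 6. By chance about 1 in 20 such groups holds one, and 4 were found. Cyp8b1 read 11.51 in wild-type vehicle replicate 4, against 10.62 to 10.91 in the other 5 vehicle arrays. Slc13a2 read 4.26 in wild-type OCA replicate 3, against 4.85 to 5.04 in the others. Cyp4a31 read 7.69 in wild-type OCA replicate 5, against 8.81 to 9.39 in the others. Cdkn1a read 10.23 in wild-type vehicle replicate 6, the array that stood apart, against 4.78 to 5.97 in the others.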

How the results depend on the processing

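The 13 calls became 24 with the filter on dim genes, 5 with array weights, 2 with only the wild-type groups, 667 with a block on the array code number, 5 with number 5 alone, 2 with the letter as a block, 7 without arrays ending in _2 and 2 with all probe sets. They ran from 2 (without OCA replicate 5) to 21 (without vehicle replicate 5) when 1 array was left out. They were 3 when OCA replicate 2 was left out, 5 for OCA replicate 3, and 7 for vehicle replicate 2 or 4. The replicate number as a block gave 4 calls and 1.41 for Nr0b2 (limma adjusted p = 0.0507). Same-numbered arrays are different mice and deviated together by −0.039 to 0.17 as a correlation. No reference was set for these correlations, so they do not decide whether the numbers pair mice in another way. Nr0b2 lost its call at 1.30 with array weights, 1.41 with only the wild-type groups or all probe sets, 1.42 with number 5 alone, 1.5 with the letter block, 1.28 without arrays ending in _2, and between 1.26 and 1.44 in 9 fits without 1 array (limma adjusted p up to 0.244 over all of these). With number 5 alone, which leaves 2 vehicle arrays, Slc51b stood at 1.09 and Cyp8b1 at −1.24 with limma adjusted p = 0.155 each. Chosen after the data were seen was the number block without vehicle replicate 6, which sets the OCA arrays against vehicle replicate 5. It gave 77 calls, 0.70 for Nr0b2 and 0.92 for Slc51b, without their calls. Directions turned for Cyp7a1 (0.44) and Myc (0.16) with the number block or number 5 alone, and for Cdkn1a, which ran from −1.03 to 0.06 (without vehicle replicate 6) when 1 array was left out. Calls for the difference between genotypes were 0, or 2 with array weights and 34 with the number block. The cause of these shifts was not tested. The scaling alternatives kept all counts within 1.5 times.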

Other observations

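Other gene groups not described above held no call when all arrays were fitted without a block. Acute phase proteins, which the liver secretes in inflammation, had a median log2 difference of 0.07 over 23 measured genes, with none at an unadjusted p under 0.05 in either direction. Their mean level was 11.68 in vehicle replicate 6, against 10.31 to 10.51 in the other 5 vehicle arrays. High values also occurred with OCA, at 11.49 in OCA replicate 5 and 11.15 in OCA replicate 6, against 10.22 to 10.58 in the other OCA arrays. Circadian clock genes had a median of 0.18 over 16 genes (0.06 without vehicle replicate 6, 0.28 with a block on the array code number). With that block 4 of the 16 were called higher and 2 lower, where 3.54% of all genes were called, among them Nr1d2 at 0.58 (limma adjusted p = 0.00449) and Arntl at −1.39 (limma adjusted p = 0.0104). Without a block Nr1d2, a repressor of the clock, stood at 0.19 ± 0.11, Arntl, its main activator, at −0.49 ± 0.27 and Bhlhe40, another repressor, at 0.38 ± 0.15 (limma adjusted p = 0.602, 0.602 and 0.415). Drug metabolism genes had a median of −0.01 over 22 genes, and Cyp2c37 stood at −0.39 ± 0.14 (limma adjusted p = 0.344; −0.42 without vehicle replicate 6 and −0.30 with the number block). Autophagy genes had a median of −0.01 over 24 genes, lipoprotein genes 0.02 over 20, unfolded protein response genes 0.03 over 18 and male-biased liver genes −0.03 over 20. Lymphocyte and neutrophil markers had a median of −0.09 over 14 genes, adipocyte markers −0.22 over 7 and erythroid markers −0.11 over 3. Mean levels of the first 2 of these lists lay below the array medians of 4.57 to 4.65 in every wild-type array. The erythroid list lay above them, at 5.13 to 5.66. Without vehicle replicate 6 the medians were 0.11 for acute phase, −0.04 for drug metabolism, −0.02 for autophagy, 0.02 for lipoprotein, 0.12 for unfolded protein response and −0.07 for male-biased genes, and −0.08, −0.17 and −0.16 for the last 3 marker lists. With the number block they were −0.23, 0.03, −0.03, 0.04, −0.09 and 0, and −0.13, −0.40 and 0.10, so that acute phase, drug metabolism, unfolded protein response and erythroid medians changed sign. The adipocyte list had a mean level of 4.31 in vehicle replicate 5, against 3.45 to 3.65 in the other 5 vehicle arrays and 3.27 to 3.60 in the OCA arrays. With the number block, whose vehicle side is replicates 5 and 6, 2 of its 7 genes were called lower.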
